A study of Mus musculus with 30 samples.

Results

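The genes described here mark the macrophages of the heart and the receptor pair with which microglia sense amyloid. They are the pan-macrophage genes *Adgre1*, *Cd68* and *Csf1r*, the resident macrophage genes *Mrc1*, *Lyve1* and *Cd163*, the chemokine receptor genes *Cx3cr1* and *Ccr2*, and the amyloid-sensing pair *Trem2* and *Tyrobp*. They were chosen by name, with no threshold on a measured value, and all 10 were found, as 10 of the 49671 genes listed for the peptide study and 10 of the 55263 genes to which the antibody transcripts were summed. The measurement was bulk RNA sequencing of left ventricular tissue from 30 hearts, each from a different mouse.

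Amyloid-β42 (Aβ42) is a peptide cut from the amyloid precursor protein, best known from the plaques of Alzheimer's disease, and the experiments asked how the heart responds when it is added or neutralised. In the peptide study, male wild-type C57BL6J mice received a daily intraperitoneal injection of recombinant human Aβ42 (7 hearts) or of scrambled peptide, ScrAβ42, with the same amino acids in another order (7 hearts), for 4 weeks. The age is 12 weeks in the sample labels, while injections began at 10 to 12 weeks in the methods. The dose is 1 mg per day in the labels and 1 µg per day in the methods, and neither difference was resolved. In the antibody study, male C57BL6J mice, 12 weeks old when assigned to groups, on a high fat diet with 43% of energy from fat received a weekly intraperitoneal injection of 3D6, an antibody that binds the amino terminus of Aβ (8 hearts), or of a control IgG2a antibody (8 hearts), at 0.75 mg/kg for 4 months. All antibody-treated mice carried the diet, so no heart of that study stands for a lean mouse, and the series description differs from the methods in naming Aβ42 injections for these mice too. Both studies sampled whole tissue, in which fewer macrophages and less macrophage RNA per cell cannot be told apart.

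Macrophages are the most common immune cells of the healthy heart. Resident cardiac macrophages seeded before birth renew themselves in place and carry the scavenger and hyaluronan receptors encoded by *Mrc1*, *Cd163* and *Lyve1*, while macrophages recruited from blood monocytes carry the chemokine receptor CCR2. TREM2 is a surface receptor for lipids, lipoproteins and Aβ that signals through its partner TYROBP, an adaptor whose phosphorylation recruits the kinase SYK, and in the brain this pair drives the response of microglia to plaques.

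Promoter sequence was available from RefSeq (GRCm38.p6) for 6 of the 10 genes, *Mrc1*, *Cd163*, *Cx3cr1*, *Ccr2*, *Cd68* and *Trem2*. *Adgre1*, *Csf1r*, *Lyve1* and *Tyrobp* had no entry. Because most of these genes rose and fell together from heart to heart in the peptide study, as described below, the 250 bases before each RefSeq start site were searched for GAGGAA, the core letters bound by PU.1, the transcription factor that defines the macrophage lineage and is encoded by *Spi1*. The search covered both strands, so that TTCCTC counts as a match on the other strand. The letters stood in 3 of the 6 windows and in 7639 of 32851 promoter windows of the same length, 23.25%. The 3 windows that hold them are printed on the strand of the gene, 5′ to 3′, with the matches in capitals. They lie at chr2:14229164-14229413 on the plus strand for *Mrc1*, chr11:69666171-69666420 on the minus strand for *Cd68* and chr17:48346151-48346400 on the plus strand for *Trem2*.
Mrc1: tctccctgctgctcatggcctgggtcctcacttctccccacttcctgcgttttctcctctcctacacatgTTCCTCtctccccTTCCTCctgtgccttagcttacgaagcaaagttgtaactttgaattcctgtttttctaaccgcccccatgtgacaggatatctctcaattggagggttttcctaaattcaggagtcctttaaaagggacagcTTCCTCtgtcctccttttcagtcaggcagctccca
Cd68: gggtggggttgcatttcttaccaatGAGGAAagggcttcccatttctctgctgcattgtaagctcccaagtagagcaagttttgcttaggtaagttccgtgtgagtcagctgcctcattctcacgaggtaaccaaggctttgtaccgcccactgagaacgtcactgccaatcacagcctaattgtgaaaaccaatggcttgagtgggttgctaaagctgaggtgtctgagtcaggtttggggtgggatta
Trem2: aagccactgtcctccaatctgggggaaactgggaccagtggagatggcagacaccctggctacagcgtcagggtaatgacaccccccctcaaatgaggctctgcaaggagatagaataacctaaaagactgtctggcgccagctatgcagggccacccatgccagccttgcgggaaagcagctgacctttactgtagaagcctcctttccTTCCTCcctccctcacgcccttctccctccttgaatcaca
The RefSeq start sites need not be those of the GENCODE annotation used for the counts. The *Mrc1* window runs into the GENCODE gene, as do those of *Ccr2* and *Cx3cr1*. Counted from the RefSeq start site, the matches began at bases -180, -167 and -35 in *Mrc1*, at -225 in *Cd68* and at -40 in *Trem2*. *Cd163*, *Cx3cr1* and *Ccr2* held no match. A match of 6 letters is a description of the sequence and does not show that PU.1 binds there. The part of such matches in the shared variation between hearts was not tested. *Spi1* itself was tested in the peptide study with a log2 fold change of -0.28 ± 0.22 (SE) and an edgeR adjusted p of 0.874.

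Libraries of the peptide study held 4478991 to 6015767 counts, and those of the antibody study 6397192 to 8310478. Mitochondrial transcripts took 12.9 to 22.2% and 26.0 to 37.9% of the counts in the respective studies. The cardiomyocyte genes were abundant in every heart, but genes of atrial muscle (*Sln*, *Myl7*, *Myl4*, *Bmp10*, *Mybphl*), which a ventricular sample should hold at low level, varied widely. Their summed level ran from 12.4 to 8417 CPM, counts scaled to a common library size, in Aβ42 hearts, from 3.82 to 3665 in ScrAβ42 hearts, from 1.06 to 670.3 in 3D6 hearts and from 0.825 to 2785 in control antibody hearts, and none of the 5 was at 0 in every heart of a study. The 2 studies were quantified separately and at different depth, so levels are compared only within a study.

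All positions are from the GENCODE annotation on GRCm38. *Adgre1* (ENSMUSG00000004730) lies on chromosome 17 from 57358691 to 57483527 and *Trem2* (ENSMUSG00000023992) on chromosome 17 from 48346401 to 48354147, both on the plus strand. *Cd68* (ENSMUSG00000018774) lies on chromosome 11 from 69664213 to 69666153, minus strand, and *Csf1r* (ENSMUSG00000024621) on chromosome 18 from 61100598 to 61132149, plus strand. *Mrc1* (ENSMUSG00000026712) lies on chromosome 2 from 14229392 to 14332057, plus strand, and *Cd163* (ENSMUSG00000008845) on chromosome 6 from 124304656 to 124330527, plus strand. Chromosome 7 holds both *Lyve1* (ENSMUSG00000030787), from 110850607 to 110863239 on the minus strand, and *Tyrobp* (ENSMUSG00000030579), from 30413760 to 30417585 on the plus strand. Chromosome 9 holds both *Cx3cr1* (ENSMUSG00000052336), from 119901616 to 120069879 on the minus strand, and *Ccr2* (ENSMUSG00000049103), from 124101950 to 124113557 on the plus strand. The annotated span of *Cx3cr1* overlaps 9 other genes, 3 of them on its own strand, among them *Xirp1*, a gene of heart and skeletal muscle. These are overlaps of gene spans, and whether *Cx3cr1* reads were shared with a neighbour was not tested.

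With edgeR's quasi-likelihood test and Benjamini-Hochberg adjustment over the genes averaging 10 or more counts per heart, none of the macrophage genes that passed this filter was called with either treatment. The peptide comparison called 0 of 11985 genes (0%) at an adjusted p under 0.05 and 748 genes (6.24%) at an unadjusted p under 0.05, and DESeq2 called 12. The antibody comparison called 0 of 12146 genes (0%) at the adjusted threshold and 436 genes (3.59%) at the unadjusted one, and DESeq2 called 0. Of the 10 macrophage and amyloid-sensing genes, 7 passed the filter in the peptide table and 9 in the antibody table, and 0 of the 7 and 0 of the 9 had an unadjusted p under 0.05 by edgeR. A share equal to the background would be under 1 gene in either study. Their median log2 fold change was -0.05 with Aβ42, against 0.0015 over all genes tested, and -0.14 with 3D6, against -0.01. In no case did all hearts of one group lie above all hearts of the other.

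**Figure D1:**
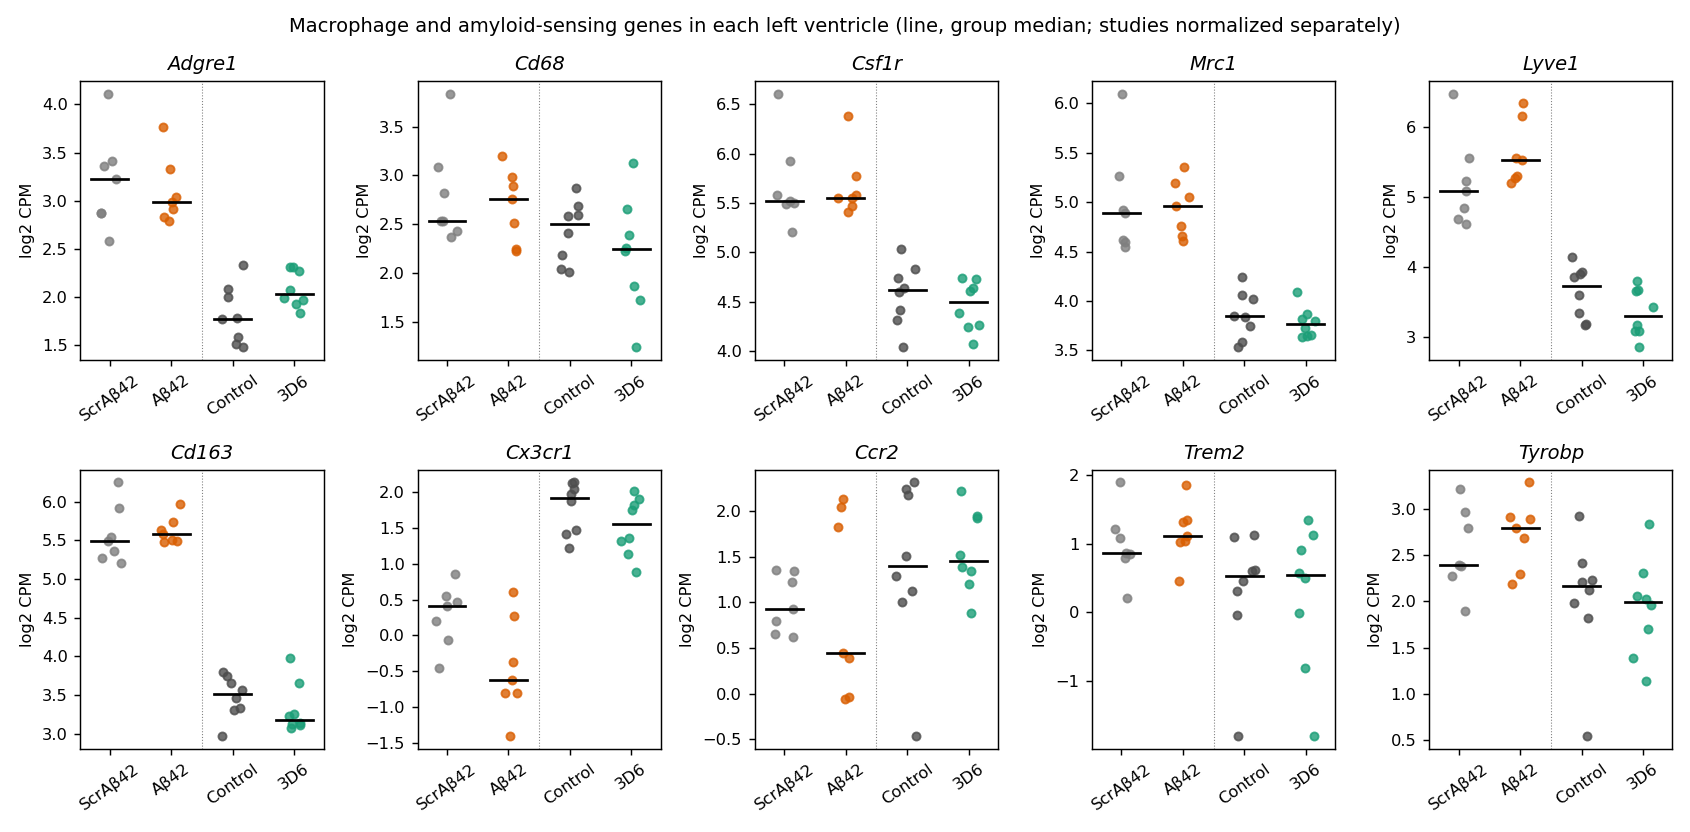
Level of each of the 10 genes in every heart, as log2 CPM with a prior count of 2, with 1 point per heart and a line at the group median. The Aβ42 and ScrAβ42 points, and the 3D6 and control antibody points, overlap for all 10 genes.

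The plot of levels by heart shows the spread behind these tests. In the peptide study the highest heart held 2.66 times the *Csf1r* level of the lowest and 3.23 times the *Cd68* level. One ScrAβ42 heart, labelled ScrAbeta42_3448, was the highest of all 14 for 7 of the 10 genes.

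No difference beyond that spread was found for the pan-macrophage genes with Aβ42. *Adgre1* encodes the surface receptor by which mouse macrophages are commonly stained, and its lowest, median and highest levels were 6.56, 7.56 and 13.2 CPM in the Aβ42 hearts and 5.62, 8.96 and 16.9 CPM in the ScrAβ42 hearts. The ScrAβ42 range was the wider at both ends, and the log2 fold change was -0.17 ± 0.23 (SE, n = 7 and 7, edgeR adjusted p = 0.943). *Cd68*, a protein of lysosomal membranes, ran from 4.31 through a median of 6.38 to 8.79 CPM with Aβ42 and from 4.81 through 5.42 to 13.9 CPM with ScrAβ42. Its median was higher and its mean lower with Aβ42, with a log2 fold change of -0.18 ± 0.24 (SE, edgeR adjusted p = 0.944). *Csf1r*, the receptor for the growth factor that macrophages need to survive, ran from 41.96 through 46.6 to 82.9 CPM with Aβ42 and from 36.4 through 45.5 to 96.97 CPM with ScrAβ42, a log2 fold change of -0.05 ± 0.21 (SE, edgeR adjusted p = 0.978). The direction of all 3 rested on the heart ScrAbeta42_3448. Without it the log2 fold changes were 0.04, 0.08 and 0.16 in the same order.

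The fold changes of the 3 resident macrophage genes did not share a direction with all hearts in the fit. *Lyve1*, the hyaluronan receptor of perivascular resident macrophages and of lymphatic vessels, had the largest difference of the genes tested. It ran from 36.3 through a median of 45.8 to 81.5 CPM in Aβ42 hearts and from 24.01 through 33.6 to 89.1 CPM in ScrAβ42 hearts. All 7 Aβ42 hearts lay above the ScrAβ42 median, yet the highest heart of all was a ScrAβ42 heart, again ScrAbeta42_3448. The log2 fold change was 0.33 ± 0.30 (SE, edgeR unadjusted p = 0.289, adjusted p = 0.889). Without that heart it was 0.66, with an unadjusted p of 0.0105 and an adjusted p of 0.377, so it did not pass the threshold in that fit either. Without the heart Abeta42_3457 it was 0.18 (unadjusted p = 0.573), and these were the highest and the lowest of the 14 fits that each left out 1 heart. The 2-sided exact permutation p was 0.193 with all hearts and 0.0221 without ScrAbeta42_3448.

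Because lymphatic endothelium also makes *Lyve1*, its other markers are given beside it, but the lymphatic part of the *Lyve1* values was not tested. The summed level of the 6 markers was 109.0 ± 17.4 CPM with Aβ42 and 128.1 ± 29.8 CPM with ScrAβ42 (SD, n = 7 each), the opposite order to *Lyve1*. Of the 6 markers, 5 were tested and 4 were lower, *Flt4*, the growth factor receptor of lymphatic vessels, by 0.30 ± 0.11 on the log2 scale (edgeR unadjusted p = 0.0149, adjusted p = 0.757), and *Ccl21a* was at 0 in every peptide heart. Among antibody hearts the same sum was 103.8 ± 15.6 CPM with 3D6 and 101.3 ± 10.4 CPM with control antibody (SD, n = 8 each), of which *Prox1* held 54.3 and 43.8 CPM. There 4 of 6 markers were lower with 3D6 (median log2 fold change -0.08), the direction of *Lyve1* in that study, with *Flt4* at -0.22 ± 0.09 (SE, edgeR unadjusted p = 0.0215, adjusted p = 0.946).

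*Mrc1*, the mannose receptor, ran from 24 through 30.8 to 40.7 CPM with Aβ42 and from 22.9 through 29.3 to 68.2 CPM with ScrAβ42. Its log2 fold change was -0.13 ± 0.23 (SE, edgeR adjusted p = 0.953), and 0.14 without ScrAbeta42_3448. *Cd163*, the haemoglobin scavenger receptor, measured 49.4 ± 6.46 CPM with Aβ42 and 48.9 ± 14.1 CPM with ScrAβ42 (SD, n = 7 each), a log2 fold change of 0.01 ± 0.15 (SE, edgeR adjusted p = 0.992), and 0.15 without ScrAbeta42_3448. Without that heart all 3 resident genes were thus higher with Aβ42. *Cd163* was the most even of the genes across Aβ42 hearts, with a coefficient of variation of 13.1%.

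The atrial markers differed more between the groups than these genes did. All 5 were higher with Aβ42 in the fit, with a median log2 fold change of 2.31 and 1 of 5 (*Bmp10*) at an unadjusted p under 0.05. With the atrial marker score of each heart as a covariate, the log2 fold changes were -0.51 for *Adgre1* (unadjusted p = 0.0163), -0.55 for *Cd68* (unadjusted p = 0.0168), -0.37 for *Csf1r* (unadjusted p = 0.0323) and -0.52 for *Mrc1* (unadjusted p = 0.00161, adjusted p = 0.452) by edgeR. *Lyve1* and *Cd163* then measured -0.08 and -0.18. None of these passed the adjusted threshold, nor did any of the 11985 genes in that fit. The share of all genes at an unadjusted p under 0.05 was not counted there. The score itself differed by group, with a mean of 0.47 in Aβ42 hearts and -0.47 in ScrAβ42 hearts, so covariate and treatment overlap. The part of atrial tissue in the comparison was not tested beyond this covariate.

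*Cx3cr1*, the receptor for the membrane-bound chemokine fractalkine, was the scarcest of the genes in the peptide study, with a mean of 3.43 counts per heart, under the filter. Aβ42 hearts held 0 to 6 counts and ScrAβ42 hearts 2 to 8. The medians were 0.275 and 0.956 CPM, and all 7 ScrAβ42 hearts lay above the Aβ42 median. The exact permutation test of the difference in mean log2 CPM gave -0.73 (two-sided, n = 7 and 7, unadjusted p = 0.0373), and edgeR without the filter gave a log2 fold change of -1.01 ± 0.52 (SE, unadjusted p = 0.0594, adjusted p = 0.675). With so few counts, leaving out single hearts changed the permutation result. In 9 of 14 such refits the p was no longer under 0.05. Over all 14 the differences ran from -0.91 to -0.57. *Cx3cl1*, which encodes fractalkine itself and is made mainly by endothelium and neurons, was also lower, by 0.40 ± 0.16 on the log2 scale (SE, edgeR unadjusted p = 0.0194, adjusted p = 0.766).

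*Ccr2*, the receptor that draws monocytes out of the marrow and into tissue, stood just under the filter with a mean of 9.93 counts per heart. Aβ42 hearts held 3 to 23 counts and ScrAβ42 hearts 5 to 13, with medians of 0.988 and 1.53 CPM and means of 2.00 ± 1.56 and 1.65 ± 0.441 CPM (SD, n = 7 each). The Aβ42 hearts spread both above and below the ScrAβ42 hearts, with a permutation difference of -0.03 (exact permutation, 2-sided p = 0.951). The edgeR fit without the filter had the other sign, at 0.28 ± 0.39 (SE, unadjusted p = 0.488, adjusted p = 0.880). No difference in *Ccr2* was detectable at this depth.

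To set *Ccr2* against the resident macrophage genes within a heart, it was expressed as a percent of the summed CPM of *Mrc1*, *Lyve1* and *Cd163*. Lowest, median and highest values were 0.472, 0.842 and 3.47% in Aβ42 hearts and 0.935, 1.44 and 2.00% in ScrAβ42 hearts. Aβ42 hearts lay on both sides of the ScrAβ42 range. The values rest on 78 and 61 *Ccr2* counts summed over the respective groups.

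**Figure D2:**
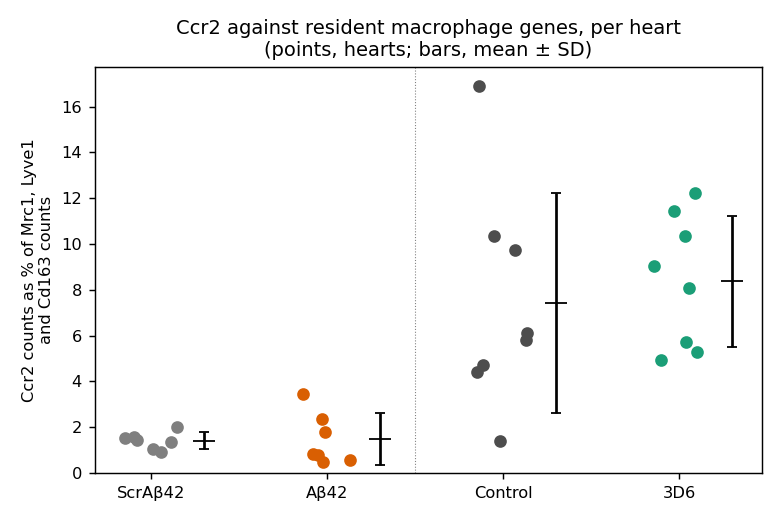
*Ccr2* as a percent of the summed CPM of *Mrc1*, *Lyve1* and *Cd163*, with 1 point per heart and the group mean ± SD beside the points. Aβ42 hearts run from 0.472 to 3.47%, ScrAβ42 hearts from 0.935 to 2.00%, 3D6 hearts from 4.92 to 12.2% and control antibody hearts from 1.42 to 16.9%.

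The plot of *Ccr2* relative to the resident genes shows the wider spread of the Aβ42 group against the ScrAβ42 group. It shows too that control antibody hearts spread more widely than 3D6 hearts.

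No difference beyond the spread was found for the amyloid-sensing pair with Aβ42, and *Trem2*, at a mean of 9.86 counts per heart, was under the filter. *Trem2* held 5 to 17 counts in Aβ42 hearts and 4 to 20 in ScrAβ42 hearts, with medians of 1.79 and 1.44 CPM. The ranges were nearly the same (exact permutation difference 0.18, two-sided p = 0.497). *Tyrobp*, its adaptor, ran from 4.17 through 6.57 to 9.36 CPM with Aβ42 and from 3.35 through 4.85 to 8.88 CPM with ScrAβ42. More Aβ42 hearts lay in the upper part of the range, 5 of 7 being above the ScrAβ42 median, and the log2 fold change was 0.14 ± 0.22 (SE, edgeR adjusted p = 0.947). It was 0.0282 without Abeta42_3455 and -0.032 with the atrial score as a covariate.

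The antibody study gives the reverse comparison for the same genes, with Aβ neutralised in mice on the fat diet. *Adgre1* was the one gene of the 9 tested that was higher with 3D6. It ran from 3.27 through a median of 3.80 to 4.68 CPM in 3D6 hearts and from 2.496 through 3.14 to 4.73 CPM in control antibody hearts. All 8 of the 3D6 hearts lay above the control median, and 2 of 8 control hearts above the 3D6 median. The log2 fold change was 0.27 ± 0.16 (SE, edgeR unadjusted p = 0.106, adjusted p = 0.946), and the exact permutation test gave a two-sided p of 0.0542. The difference stayed positive without any one heart, and the exact permutation p fell under 0.05 in 4 of the 16 refits (0.0104, 0.0469 and 0.0364 without control mouse 15, 18 or 23, and 0.0371 without 3D6 mouse 24), but the edgeR adjusted p did not pass in any.

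The other pan-macrophage genes lay the other way. *Cd68* ran from 2.08 through 4.46 to 8.45 CPM with 3D6 and from 3.76 through 5.38 to 7.03 CPM with control antibody, a log2 fold change of -0.18 ± 0.23 (SE, edgeR adjusted p = 0.946). The 3D6 hearts held both the lowest and the highest value, and the log2 fold change was -0.0654 without 3D6 mouse 12, -0.36 without 3D6 mouse 21 and -0.0185 with the mitochondrial share of counts as a covariate. *Csf1r* measured 22.1 ± 3.84 CPM with 3D6 and 24.1 ± 5.16 CPM with control antibody (SD, n = 8 each), a log2 fold change of -0.13 ± 0.13 (SE, edgeR adjusted p = 0.946).

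All 3 resident macrophage genes were lower on average with 3D6, each by less than the test could separate from the spread. *Lyve1* ran from 6.90 through 9.53 to 13.6 CPM with 3D6 and from 8.66 through 12.96 to 17.5 CPM with control antibody. Only 1 of 8 3D6 hearts lay above the control median, and 6 of 8 control hearts lay above the 3D6 median. The log2 fold change was -0.31 ± 0.17 (SE, edgeR unadjusted p = 0.0759, adjusted p = 0.946), and the exact permutation test gave a two-sided p of 0.111.

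*Mrc1* measured 13.5 ± 1.55 and 14.4 ± 2.503 CPM and *Cd163* 9.97 ± 2.62 and 11.04 ± 2.02 CPM in 3D6 and control hearts (SD, n = 8 each). Their log2 fold changes were -0.10 ± 0.11 and -0.14 ± 0.15 (SE, edgeR adjusted p = 0.946 for both). For *Cd163*, 7 of 8 control hearts lay above the 3D6 median, but the 3D6 hearts also held its highest value, 15.5 CPM. With the mitochondrial share of counts as a covariate, the log2 fold changes of *Lyve1*, *Mrc1* and *Cd163* were -0.20, -0.0362 and -0.13.

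*Cx3cr1* was easily measured in the antibody study, with a mean of 21 counts per heart. It ran from 1.56 through 2.68 to 3.79 CPM with 3D6 and from 2.06 through 3.52 to 4.12 CPM with control antibody. The 3D6 hearts lay lower, with 1 of 8 above the control median, but the ranges overlapped and the log2 fold change was -0.28 ± 0.21 (SE, edgeR unadjusted p = 0.190, adjusted p = 0.946). With the mitochondrial share as a covariate it was -0.0823 (unadjusted p = 0.668). Whether the *Cx3cr1* differences of the 2 studies are alike was not tested, since the studies differ in diet, treatment and table.

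*Ccr2* was level on average, at 2.77 ± 0.946 CPM with 3D6 and 2.77 ± 1.52 CPM with control antibody (SD, n = 8 each), a log2 fold change of -0.01 ± 0.32 (SE, edgeR adjusted p = 0.999). The sign of this value changed with the processing. As a percent of the resident genes, *Ccr2* had a lowest, median and highest value of 4.92, 8.56 and 12.2% with 3D6 and 1.42, 5.95 and 16.9% with control antibody. The control hearts lay on both sides of the 3D6 range. *Trem2*, at a mean of 8 counts per heart, was under the filter and ran from 0 to 15 counts with 3D6 and from 0 to 14 with control antibody, with medians of 1.17 and 1.16 CPM. *Tyrobp* ran from 1.93 through 3.70 to 6.82 CPM with 3D6 and from 1.18 through 4.195 to 7.29 CPM with control antibody, a log2 fold change of -0.15 ± 0.28 (SE, edgeR adjusted p = 0.949).

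**Figure D3:**
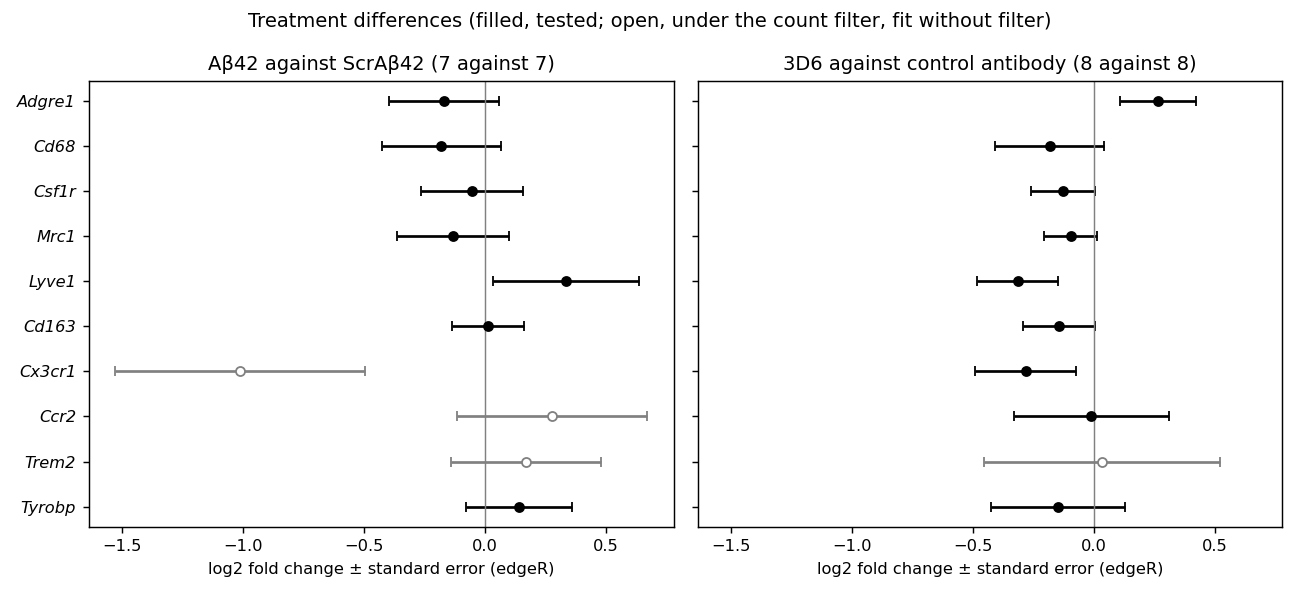
Log2 fold change of each gene with its standard error in the edgeR fit, Aβ42 against ScrAβ42 on the left and 3D6 against control antibody on the right, with open symbols for genes under the count filter, whose values come from the fit without it. Among the filled symbols the values run from -0.18 to 0.33 on the left and from -0.31 to 0.27 on the right.

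In the plot of fold changes, *Lyve1* is the highest filled symbol on the left and the lowest on the right. Those are separate comparisons in mice on different regimens, and the difference between them was not tested.

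The 8 cardiomyocyte markers were 3 higher and 5 lower with 3D6 (median log2 fold change -0.03). Markers of blood endothelium and fibroblasts lay lower in the fit, with 0 at the adjusted threshold. All 6 blood endothelial markers were lower (median log2 fold change -0.21), with *Pecam1*, an adhesion protein of endothelium, at -0.23 ± 0.09 (SE, edgeR unadjusted p = 0.0160, adjusted p = 0.946). All 6 fibroblast markers were lower too (median -0.10, 0 at an unadjusted p under 0.05). The part of these cells in the macrophage values was not tested.

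In the fit, the 4 atrial markers tested in the antibody study were all lower with 3D6 (median log2 fold change -0.97, none at an unadjusted p under 0.05). Other summaries of the atrial markers ran the opposite way. The mean atrial marker score was 0.13 with 3D6 and -0.13 with control antibody, and the median summed level was 98.8 and 2.89 CPM. A control antibody heart held the highest sum, 2785 CPM. With the atrial score as a covariate, *Lyve1* measured -0.33 and *Adgre1* 0.24, close to the values without it.

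The order of levels within a study was read per kilobase of mean annotated transcript length. In the peptide study it was *Csf1r* (25.9 CPM per kb), *Lyve1* (24.9), *Cd163* (12.7), *Tyrobp* (10.5), *Mrc1* (8.69), *Cd68* (7.01), *Adgre1* (5.53), *Trem2* (0.986), *Ccr2* (0.503) and *Cx3cr1* (0.174). By this length *Csf1r* and *Lyve1* were not separable, *Csf1r* being higher in 9 of 14 hearts. *Lyve1* exceeded *Cd163*, and *Adgre1* exceeded *Trem2*, in 14 of 14. Among antibody hearts the order was *Csf1r* (11.3), *Tyrobp* (6.83), *Lyve1* (6.12), *Cd68* (5.16), *Mrc1* (3.75), *Cd163* (2.71), *Adgre1* (2.27), *Cx3cr1* (0.783), *Ccr2* (0.763) and *Trem2* (0.605). By this mean length *Csf1r* led in 16 of 16 hearts, and *Tyrobp* and *Lyve1* overlapped with *Tyrobp* higher in 10 of 16. Of the last 3, *Cx3cr1* exceeded *Ccr2* in 7 of 16 and *Ccr2* exceeded *Trem2* in 9 of 16. With the longest transcript of each gene those counts were 14 and 15 of 16, so the separation of these 3 depends on the length used. Taking the longest transcript instead put *Lyve1* (15.9 CPM per kb) first among peptide hearts, above *Csf1r* (11.2) in 13 of 14. It put *Tyrobp* (6.62 CPM per kb) first among antibody hearts, above *Csf1r* (4.91) in 13 of 16. In the antibody study, 46.1% and 53.6% of *Csf1r* counts fell on transcripts of 3870 and 4701 bases, against a mean annotated length of 2043.8. The first place of *Csf1r* by mean length thus rests on a length shorter than the transcripts read.

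The antibody table gives estimated counts per transcript, which show the form in which these genes were read. A single protein-coding transcript held 98.9% of the *Lyve1* counts (ENSMUST00000033050), 94.7% of *Cd68* (ENSMUST00000018918), 92.1% of *Tyrobp* (ENSMUST00000207982) and 88.3% of *Mrc1* (ENSMUST00000028045). The remainder of *Mrc1*, 11.7%, fell on a retained-intron transcript, as did 22.3% of *Cd163* and 33.5% of *Trem2*.

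For some genes with several transcripts the assignment jumped between them. The *Csf1r* transcripts ENSMUST00000025523 and ENSMUST00000115268 held 46.1% and 53.6% of the gene's counts in all, but the former was at 0 in 4 of 16 hearts. The main *Tyrobp* transcript gave way wholly to ENSMUST00000032800 in 2 hearts. Of the transcripts of these genes, 13 passed the filter and 0 passed an adjusted p of 0.05 (edgeR adjusted p = 0.9998 for each), among 20857 transcripts of which 0 (0%) were called, with 489 (2.34%) at an unadjusted p under 0.05 and 9 called by DESeq2. Only the sums over transcripts are used in the comparisons.

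The 10 genes were also compared with each other from heart to heart. With the group means removed, all 45 pairs of the 10 genes correlated positively over the 14 hearts, with Pearson r from 0.07 to 0.92 and a median of 0.71. Of the 45, 29 passed a Benjamini-Hochberg adjusted permutation p of 0.05 by Pearson's r and 24 by Spearman's rho. The 29 had r of at least 0.571, a value that 7.86% of all pairs of the genes tested reached in the same hearts, where the median r was 0.0 and 50.02% of pairs were positive. The hearts share the atrial and mitochondrial variation described with the heart scores, and its part in these correlations was not tested beyond the removal of the atrial score. All 15 pairs among *Adgre1*, *Cd68*, *Csf1r*, *Mrc1*, *Lyve1* and *Cd163* were among the 29. *Csf1r* and *Cd163* gave r = 0.92 and rho = 0.71 (permutation p = 3e-05 and 0.00566, adjusted p = 0.00067 and 0.0283), with r = 0.84 without the 2 hearts farthest from the median *Csf1r* level. *Trem2* and *Tyrobp* gave r = 0.71 and rho = 0.69 (permutation p = 0.00398 and 0.00778, adjusted p = 0.00779 and 0.0318), with r = 0.67 without the 2 farthest hearts. The lowest value was r = 0.07 for *Mrc1* and *Cx3cr1*, the latter with few counts (rho = -0.04, permutation p = 0.825 and 0.903, adjusted p = 0.825 and 0.945).

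The number of pairs passing leaned on 1 heart. Without ScrAbeta42_3448, 44 of 45 pairs were still positive with a median r of 0.55, but 3 passed. The number of positive pairs was lowest without Abeta42_3455, at 41 of 45 with a lowest r of -0.17 and a median of 0.65. With the atrial marker score removed from each gene, 14 passed. The pair of *Adgre1* and *Cd68* fell from r = 0.74 (rho = 0.52, permutation p = 0.00251 and 0.0597, adjusted p = 0.0058 and 0.0995) to 0.29 without its 2 farthest hearts.

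**Figure D4:**
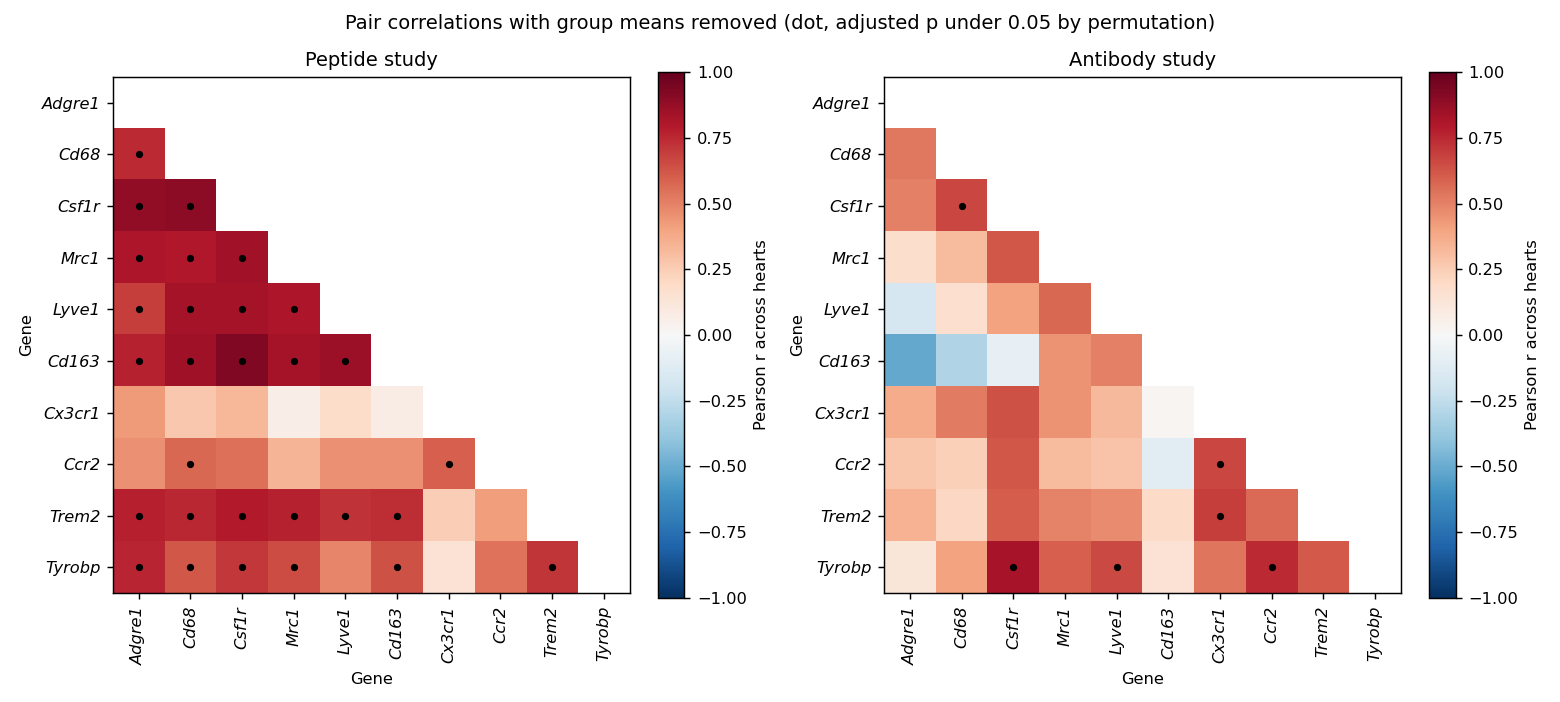
Pearson r of log2 CPM for each pair of the 10 genes, group means removed, over the 14 hearts of the peptide study and the 16 hearts of the antibody study, on a colour scale from -1 to 1, with a dot where the adjusted permutation p is under 0.05. All 45 pairs are positive in the peptide study and 40 of 45 in the antibody study.

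Among antibody hearts, 40 of 45 pairs were positive with a median r of 0.45, and 6 passed by Pearson's r and 2 by Spearman's rho. The 6 had r of at least 0.659, reached by 5.85% of all pairs of genes tested in those hearts. Only 1 of the 15 pairs among *Adgre1*, *Cd68*, *Csf1r*, *Mrc1*, *Lyve1* and *Cd163* was among the 6, and the 15 ran from r = -0.51 to 0.67. *Csf1r* and *Tyrobp* gave r = 0.83 and rho = 0.77 (permutation p = 0.0001 and 0.00085, adjusted p = 0.0045 and 0.0191), with r = 0.67 without the 2 farthest hearts. *Cd68* and *Csf1r* gave r = 0.67 and rho = 0.77 (permutation p = 0.0043 and 0.00082, adjusted p = 0.0323 and 0.0191), with r = 0.69. *Cx3cr1* went with *Trem2* at r = 0.70 (rho = 0.63, permutation p = 0.00197 and 0.0107, adjusted p = 0.0262 and 0.0623) and with *Ccr2* at r = 0.67 (rho = 0.64, permutation p = 0.00291 and 0.00837, adjusted p = 0.0262 and 0.0623), with r = 0.57 and 0.68 without the 2 farthest hearts. The heatmap of pairs shows the mostly higher values of the peptide study and the lower ones of the antibody study, in which the lowest pair was *Adgre1* and *Cd163* at r = -0.51 (rho = -0.50, permutation p = 0.0418 and 0.05, adjusted p = 0.104 and 0.161, r = -0.50 without the 2 farthest hearts). The number passing ran from 1, without the control antibody heart of mouse 8, to 14 over the hearts left out in turn. Scaling to the total count gave 21 and removing the atrial score 13.

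**Figure D5:**
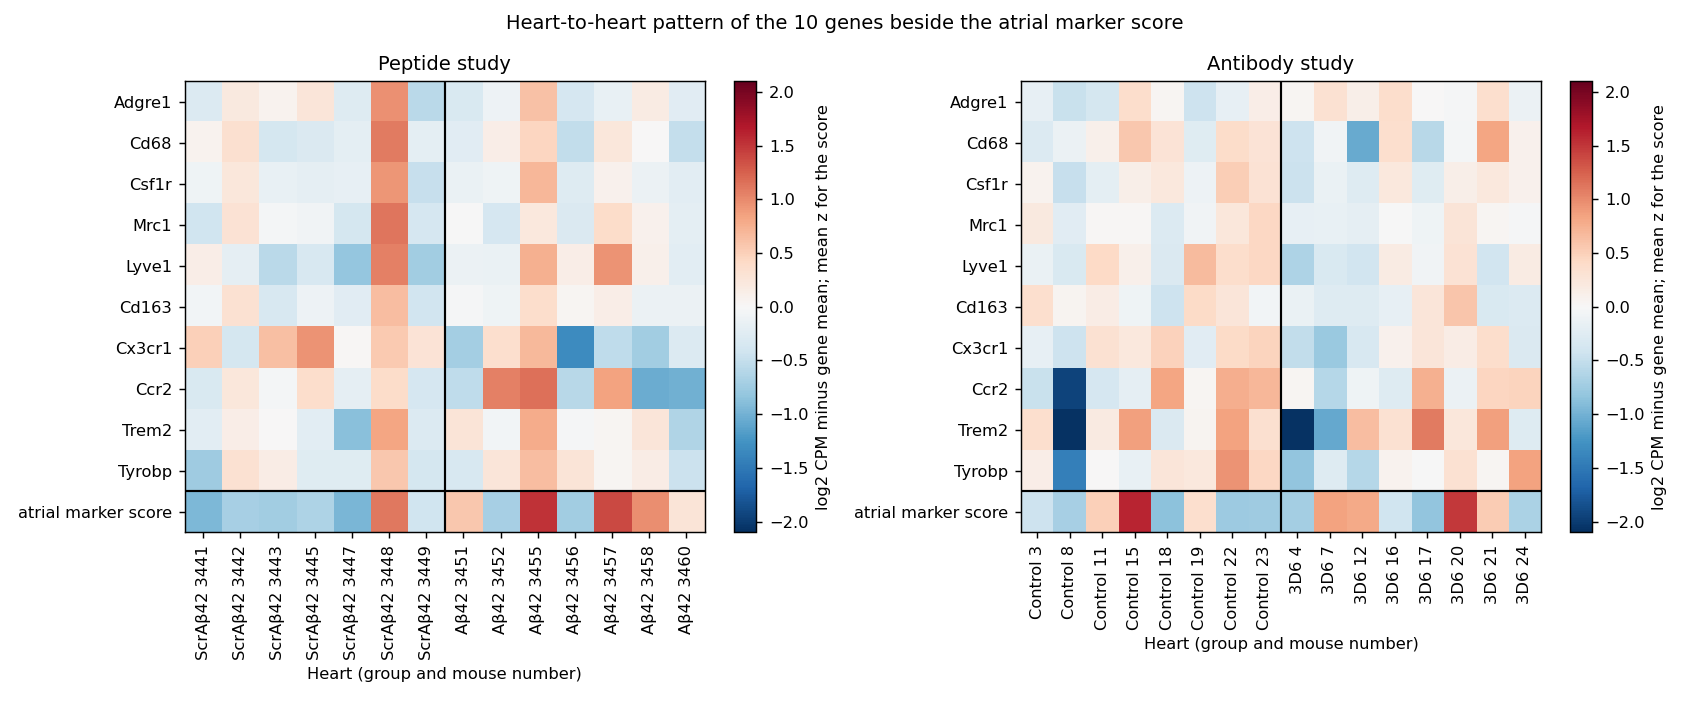
Log2 CPM of each of the 10 genes in every heart minus the mean of its study, on a colour scale symmetric about 0, hearts grouped by treatment, with the atrial marker score of each heart in the bottom line. ScrAbeta42_3448 and Abeta42_3455 stand above the other peptide hearts across most genes, and mouse 8 (control antibody) stands lowest of the antibody hearts.

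The map of hearts shows which animals stood high or low. The mean z score of the genes above the filter was 2.203 in ScrAbeta42_3448 and 1.29 in Abeta42_3455, the 2 highest of 14, and their atrial marker scores were 1.11 and 1.52. High atrial scores also stood in Abeta42_3457 (1.38, macrophage score 0.507) and Abeta42_3458 (0.971, macrophage score 0.064), while ScrAbeta42_3442 had a macrophage score of 0.605 at an atrial score of -0.702. In the antibody study the highest macrophage scores, 0.970 and 0.911 in control mice 22 and 23, went with low atrial scores of -0.757 and -0.743. Control mouse 8 was lowest at -1.31, with an atrial score of -0.702. The share of mitochondrial counts is given beside these scores. It was 26.0% in control mouse 22, the lowest of the 16 antibody hearts, and 37.9% in control mouse 8 and in 3D6 mouse 4, the 2 highest shares and the 2 lowest scores. In the peptide study the lowest shares were 12.9% in Abeta42_3457 and 13.8% in ScrAbeta42_3448, while Abeta42_3455, with the second highest score, lay mid-range at 18.6%. Whether the share and the score are related was not tested. With that share as a covariate, the log2 fold changes with 3D6 were 0.0367 for *Csf1r*, 0.22 for *Tyrobp* and 0.47 for *Ccr2*, each the opposite sign to the fit without it.

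The genes that followed the macrophage score most closely in the peptide study included lysozyme and complement genes of macrophages. Of 11978 other genes ranked over 14 hearts, the first was *Lyz2*, the lysozyme of macrophages and neutrophils (r = 0.97), followed by *C1qb* (0.96) and *C1qa* (0.94), which encode chains of complement C1q. Then came *Olfml3* (0.93), *Ifitm3* (0.93), *Tmem176b* (0.92), *Pld4* (0.92), *C1qc* (0.91), *Scn7a* (0.91) and *Ppan* (0.90). In the antibody study, of 12128 genes over 16 hearts, the first were *Ppia* (0.95), *C1qa* (0.94), *Sh3gl1* (0.94), *Rpl10a* (0.93) and *Serpinb6a* (0.93), then *Aprt* (0.93), *Anxa3* (0.93), *Gm10275* (0.93), *Nupr1* (0.93) and *Ranbp3* (0.92). *C1qa* was the 1 gene in both sets of 10. These values rank genes by likeness and carry no test.

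Wider sets of macrophage and amyloid genes, listed with earlier results of these data known, gave a like picture of no call at the adjusted threshold in any set. Of 16 other resident macrophage genes, 12 were tested in the peptide study, 5 higher and 7 lower (median log2 fold change -0.06, 0 at an unadjusted p under 0.05). In the antibody study 13 were tested, 3 higher and 10 lower (median -0.18), and *Siglec1*, a sialic acid receptor of tissue macrophages, had the smallest p, with a log2 fold change of -0.58 ± 0.23 (SE, edgeR unadjusted p = 0.0177, adjusted p = 0.946). Of 15 other monocyte genes, 5 and 6 were tested, with medians of 0.19 and -0.06, and *Nr4a1*, an orphan nuclear receptor of patrolling monocytes that other cells also induce, led the peptide study at 0.28 ± 0.21 (SE, edgeR adjusted p = 0.872).

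Of 12 genes that carry the TREM2 signal, 9 were tested with Aβ42 and 7 of them were lower (median -0.26), and 8 were tested with 3D6 and 7 were lower (median -0.11). None had an unadjusted p under 0.05. The smallest p with 3D6 was that of the 1 gene that was higher, *Grb2*, which encodes a signalling adaptor, at 0.16 ± 0.08 (SE, edgeR unadjusted p = 0.0549, adjusted p = 0.946). *Syk*, the kinase that docks on TYROBP, measured -0.17 ± 0.10 with 3D6 (SE, edgeR unadjusted p = 0.102, adjusted p = 0.946). Over all genes tested, 5932 of 11985 were lower with Aβ42 and 6411 of 12146 with 3D6. The 12 genes summed to 150.9 ± 6.66 CPM with Aβ42 and 148.8 ± 23.4 CPM with ScrAβ42 (SD), the opposite order to the counts of lower genes. The sums were 117.8 ± 3.65 CPM with 3D6 and 115.4 ± 6.17 CPM with control antibody (SD).

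Of 18 genes that plaque-associated microglia raise in the brain, 14 were tested with Aβ42, 8 higher and 6 lower, and 2 had an unadjusted p under 0.05. These were *Lgals3*, the galectin of activated macrophages (log2 fold change 2.17 ± 0.80 SE, edgeR unadjusted p = 0.0174, adjusted p = 0.766, mean 19.5 against 4.24 CPM), and *Fabp5*, a fatty acid carrier (0.37 ± 0.14, unadjusted p = 0.0184, adjusted p = 0.766). Over all genes tested the share at that threshold was 6.24%, which is about 1 of 14 genes. Both genes are also made outside macrophages, and markers of other tissue lay higher in the same hearts. All 4 mesothelial markers were higher with Aβ42 (median log2 fold change 0.84, summed at 75.7 ± 53.4 against 43.8 ± 19.4 CPM, SD, n = 7 each), as were all 4 adipocyte markers tested (median 2.49). Few hearts carried the adipocyte sum, which was 100.6 ± 187 CPM with a median of 5.41 and a maximum of 509.1 with Aβ42, and 18.3 ± 26.5 CPM with a median of 0.874 and a maximum of 59.8 with ScrAβ42 (SD, n = 7 each). All 5 red cell markers were lower (median -1.37, 0 at an unadjusted p under 0.05). Their part in the *Lgals3* and *Fabp5* values was not tested. With 3D6, 13 were tested, 4 higher and 9 lower, with *Cd63*, a protein of late endosomes, at -0.29 ± 0.13 (SE, edgeR unadjusted p = 0.0346, adjusted p = 0.946). Of 8 homeostatic microglia genes, 4 were tested in each study, 3 higher and 1 lower with Aβ42 and all 4 lower with 3D6. *Sall1*, a transcription factor that also acts in kidney and heart progenitors, measured 1.91 ± 0.61 with Aβ42 (SE, edgeR unadjusted p = 0.00685, adjusted p = 0.724) at a mean of 3.46 against 0.915 CPM, and -1.16 ± 0.61 with 3D6 (unadjusted p = 0.072, adjusted p = 0.946) at 0.979 against 2.23 CPM.

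Of 18 other receptors reported to bind Aβ, 12 were tested with Aβ42, 4 higher and 8 lower. *Tlr4*, the endotoxin receptor, had the smallest p of the set, with a log2 fold change of -0.42 ± 0.13 (SE, edgeR unadjusted p = 0.00377, adjusted p = 0.693, mean 19.8 against 26.5 CPM). With 3D6, 11 were tested, 4 higher and 7 lower, and none had an unadjusted p under 0.05. Among 10 genes of growth factor and chemokine signalling, 5 were tested in each study, 1 higher and 4 lower with Aβ42 and 3 higher and 2 lower with 3D6. Those tested include a receptor gene, *Csf2ra*, with log2 fold changes of -0.26 with Aβ42 and -0.27 with 3D6. *Csf2* was at 0 in every peptide heart. *Il34*, a ligand of the receptor that *Csf1r* encodes, measured -0.35 ± 0.22 with 3D6 (SE, edgeR unadjusted p = 0.132, adjusted p = 0.946). Of 12 macrophage cytokine and enzyme genes, 3 passed the filter in each study, led by *Nos2*, inducible nitric oxide synthase, at -0.32 ± 0.28 with Aβ42 and -0.26 ± 0.13 with 3D6 (SE, edgeR adjusted p = 0.885 and 0.946). Of 9 macrophage transcription factor genes, 7 and 8 were tested, with medians of -0.04 and -0.07 and 0 at an unadjusted p under 0.05.

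Markers of lymphocytes and neutrophils were scarce. None of the 9 T and NK cell markers or the 5 B cell markers passed the filter in either study, and their summed levels ranged from 0.709 to 4.204 CPM and from 0.397 to 3.86 CPM. Of 8 neutrophil markers, 2 and 1 were tested in the respective studies, summed at 7.88 ± 3.13 CPM with Aβ42 and 7.66 ± 4.19 CPM with ScrAβ42 (SD, n = 7 each), and *Ly6g* and *Camp* were at 0 in every antibody heart. Fibroblast markers summed to 974.4 ± 382.7 CPM with Aβ42 and 976.0 ± 421.2 CPM with ScrAβ42 (SD, n = 7 each), and their part in the variation between hearts was not tested. The 10 macrophage genes summed to 208.9 ± 46.3 CPM with Aβ42 and 203.5 ± 80.7 CPM with ScrAβ42 (SD, n = 7 each). Dendritic cell markers summed to 25.1 ± 2.93 CPM with Aβ42, 28.6 ± 2.26 CPM with ScrAβ42, 16.8 ± 1.18 CPM with 3D6 and 19.7 ± 5.31 CPM with control antibody (SD, n = 7, 7, 8 and 8). In each study 2 of the 6 were tested and both were lower, led by *Zbtb46*, which endothelium also makes, at -0.20 ± 0.10 with Aβ42 and -0.23 ± 0.13 with 3D6 (SE, edgeR adjusted p = 0.811 and 0.946). Mast cell markers summed to 8.55 ± 3.28 CPM with Aβ42 and 12.1 ± 6.12 CPM with ScrAβ42 (SD, n = 7 each), with all 3 tested lower (median -0.49), and to 5.93 ± 1.90 CPM with 3D6 and 7.19 ± 2.40 CPM with control antibody (SD, n = 8 each). None of the dendritic or mast cell markers had an unadjusted p under 0.05.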

How the data were processed

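Left ventricular RNA was sequenced from 7 Aβ42, 7 ScrAβ42, 8 3D6 and 8 control antibody hearts (TruSeq Stranded Total RNA). The authors mapped reads to the mouse reference transcriptome with Salmon (GRCm38 in the submitters' processing notes). They deposited whole-number counts per Ensembl gene for the peptide study, with how transcripts were summed not given in the sources used here, and estimated counts per transcript for the antibody study. Of the peptide table's columns, 1 matched no sample and was not used.

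Antibody transcripts were summed to genes by the GENCODE annotation, leaving out transcripts it does not list (0.381% of estimated counts), and rounded. Genes averaging 10 or more counts per heart entered edgeR 4.0.16 (quasi-likelihood, TMM scaling, Benjamini-Hochberg over all genes tested) in R 4.3.3, each study alone, at an adjusted p of 0.05. CPM values (counts per library size) were computed by edgeR from the TMM-scaled totals of the genes tested, and log2 CPM added a prior count of 2. Single genes were also tested by exact permutation over all 3432 or 12870 reassignments of the hearts, unadjusted. Pairs used 100000 permutations. The atrial marker score is the mean z score of log2 CPM over the 5 atrial genes, and the macrophage score the same over the macrophage genes past the filter. The fit was tested on simulated data. Alternatives used DESeq2 1.42.0, limma 3.58.1 and sva 3.50.0, other scalings, filters and covariates, and each heart left out. Those on transcripts, on pairs, and the hearts left out of permutation tests and ratios were chosen after seeing the data.

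The genes and lists were chosen with earlier results of these data known. Named genes are all 10, per list and study up to the 2 tested genes with the smallest unadjusted p, and per study the 10 other genes most like the macrophage score. Replicates within a group differed by more than sampling noise (the lowest chi-square per degree of freedom was 3.29).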

Additional observations from a re-analysis of the deposited data

Results flagged for a closer look

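Of 44 sets of values examined, each 1 measure in 1 treatment group, 4 held a heart farther from the rest than Dixon's 95% criterion allows. Chance alone gives such a heart in about 1 of 20 sets. The sets reuse the same hearts, so the 4 are not separate events and were not tested against that rate. *Csf1r* stood out in the Aβ42 group, where the highest heart, Abeta42_3455, was separated from the next by 0.623 of the whole range. The other 3 were all the same animal, control antibody mouse 8, which was the lowest of its group for *Ccr2* (0.529 of the range), *Trem2* (0.603) and *Tyrobp* (0.536). Its *Ccr2*, *Trem2* and *Tyrobp* rested on 3, 0 and 8 counts.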

How the results depend on the processing

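No gene of the 10 passed an adjusted p of 0.05 in any alternative edgeR, DESeq2 or limma fit run. The number of genes called with Aβ42 was 12 by DESeq2 and 1 without the filter on low counts, and 0 to 4 with each heart left out (4 without Abeta42_3452, 1 without ScrAbeta42_3448). DESeq2 called 9 transcripts with 3D6. Of the 16 fold changes of genes past the filter, 6 kept their direction in every alternative fit, those of *Adgre1*, *Cd68*, *Mrc1*, *Lyve1*, *Cd163* and *Cx3cr1* with 3D6. Each of the 7 Aβ42 fold changes reversed in at least 1 fit. For the 4 values under the filter, the fit without it on all hearts gave -1.01 for *Cx3cr1*, 0.28 for *Ccr2* and 0.17 for *Trem2* with Aβ42 and 0.0348 for *Trem2* with 3D6. With the filter kept, *Ccr2* and *Trem2* with Aβ42 could be fitted just where leaving out a heart lifted them over it, so those fits say nothing of direction.

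With Aβ42, the atrial covariate gave -0.0835 for *Lyve1*, -0.18 for *Cd163* and -0.032 for *Tyrobp*, and a surrogate variable gave -0.0938 for *Cd163*, -0.34 for *Mrc1* (unadjusted p = 0.0207, adjusted p = 0.444), -0.40 for *Cd68* (0.0456 and 0.524), -0.34 for *Adgre1*, -0.21 for *Csf1r* and 0.0658 for *Lyve1*. Leaving out each heart gave ranges of -0.31 to 0.0424 for *Adgre1*, -0.28 to 0.0804 for *Cd68*, -0.20 to 0.16 for *Csf1r*, -0.22 to 0.14 for *Mrc1*, -0.0492 to 0.15 for *Cd163*, 0.18 to 0.66 for *Lyve1* and 0.0282 to 0.28 for *Tyrobp*. With 3D6, *Ccr2* measured 0.17 by limma-voom, 0.0048 without the filter, 0.0778 with the atrial covariate, 0.47 with the mitochondrial share as a covariate and 0.32 with a surrogate variable, *Csf1r* 0.0367 and *Tyrobp* 0.22 with the mitochondrial share, and *Tyrobp* 0.10 with a surrogate variable. With that share *Cx3cr1* was -0.0823, *Cd68* -0.0185, *Mrc1* -0.0362 and *Lyve1* -0.20. Hearts left out gave -0.36 to -0.0654 for *Cd68*, -0.19 to -0.049 for *Csf1r*, -0.14 to -0.0293 for *Mrc1*, -0.26 to -0.0966 for *Cd163*, -0.17 to 0.14 for *Ccr2* and -0.33 to 0.0207 for *Tyrobp*. The cause was not tested, and the share of all genes at an unadjusted p under 0.05 was not counted in these fits.

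The permutation differences scaled to the total count were 0.0081 for *Csf1r* and 0.0005 for *Ccr2* with Aβ42. With each heart left out they ran from -0.22 to 0.039 for *Adgre1*, -0.20 to 0.0562 for *Cd68*, -0.13 to 0.14 for *Csf1r*, -0.12 to 0.14 for *Mrc1*, -0.0111 to 0.16 for *Cd163* and -0.22 to 0.15 for *Ccr2* with Aβ42, and from -0.12 to 0.28 for *Ccr2*, -0.37 to 0.22 for *Trem2* and -0.31 to 0.0246 for *Tyrobp* with 3D6. The number of gene pairs passing was 14 with the atrial score removed in the peptide study and 3 to 30 with each heart left out. In the antibody study it was 11 with a prior count of 0.5, 21 scaled to the total count, 13 with the atrial score removed and 1 to 14 with each heart left out.

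No paired analysis was run, and the groups compared share no mouse numbers. The antibody mouse numbers fall in neighbouring pairs, each with a 3D6 and a control antibody heart. What such neighbours share is not given in the sources used here, and a fit blocked on them was not run. At 3.43 to 9.93 mean counts per heart, *Cx3cr1*, *Ccr2* and *Trem2* in the peptide study were measured with low precision. Only samples are replicates, and how litters and cages were divided between the groups is not given in the sources used here.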
